A study of Mus musculus with 4 samples.

Results

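The genes described here are the 7 members of the interferon gamma chain, namely the ligand gene Ifng, the receptor genes Ifngr1 and Ifngr2, the kinase genes Jak1 and Jak2, and the response genes Irf1 and Socs1. They were taken by symbol from the 55367 genes of each count table, and all 7 were present and had enough counts to be tested. RNA was measured by bulk RNA sequencing in 4 mouse libraries, 2 titled WT and 2 titled KO, from dissociated B16-F10 tumors, a line of mouse melanoma cells that grows after injection under the skin. The sample labels describe the sorted cells as CD45.2+CD8+, where CD45.2 marks blood-derived cells and CD8 marks cytotoxic T cells. The series compares WT mice with mice that carry floxed Satb1 alleles (Satb1 F/F) and a Cre transgene, either ThPOK-cre, which acts in T cells of the CD4 lineage, or E8I-cre, which acts in T cells of the CD8 lineage. Which of these Cre drivers stands behind the KO title, and the age and sex of the animals, are not given for the single libraries, nor is it stated that the libraries come from separate animals, so the p-values measure the spread between these libraries, which may be technical.

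Interferon gamma is the cytokine of the type II interferon response and is made mainly by activated T cells and natural killer (NK) cells. It binds a receptor built from the chains IFNGR1, which holds the ligand, and IFNGR2, which is needed to pass the signal on, and these chains carry the kinases JAK1 and JAK2. The signal of the kinases reaches the nucleus and switches on genes such as Irf1, a transcription factor that relays the response, and Socs1, which blocks the kinases and so shuts the signal down. In tumors this chain links lymphocytes to macrophages, dendritic cells and tumor cells, most of which carry the receptor and do not make the ligand.

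The promoters of the ligand gene and of the response genes are shown because the chain starts at the first and ends at the others. Each is the 250 bases before the gene's farthest upstream start in RefSeq on GRCm38.p6, written 5′ to 3′ on the strand of the gene. Capitals mark matches to TTCNNNGAA, the letters of the gamma-activated sequence (GAS), or to GAAA, any 2 bases and GAAA again, letters found in interferon-stimulated response elements (ISRE), where N is any base. Both strands were searched. They lie at chr10:118440796-118441045 on the plus strand (Ifng), chr11:53769764-53770013 on the plus strand (Irf1) and chr16:10785537-10785786 on the minus strand (Socs1).
Ifng: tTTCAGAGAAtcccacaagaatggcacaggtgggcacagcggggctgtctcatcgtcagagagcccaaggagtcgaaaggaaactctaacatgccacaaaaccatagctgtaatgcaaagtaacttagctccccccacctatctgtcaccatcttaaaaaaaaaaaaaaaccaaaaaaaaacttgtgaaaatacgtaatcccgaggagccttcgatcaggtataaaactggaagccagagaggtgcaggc
Irf1: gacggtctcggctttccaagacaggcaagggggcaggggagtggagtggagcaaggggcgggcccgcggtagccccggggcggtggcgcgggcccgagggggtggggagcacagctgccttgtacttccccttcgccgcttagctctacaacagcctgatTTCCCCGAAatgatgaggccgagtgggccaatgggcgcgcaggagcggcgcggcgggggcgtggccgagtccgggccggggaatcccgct
Socs1: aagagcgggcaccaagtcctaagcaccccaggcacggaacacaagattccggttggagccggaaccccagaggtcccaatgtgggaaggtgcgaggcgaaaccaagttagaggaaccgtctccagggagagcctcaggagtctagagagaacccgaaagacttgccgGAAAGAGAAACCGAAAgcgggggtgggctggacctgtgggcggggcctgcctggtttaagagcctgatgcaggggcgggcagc

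The Irf1 promoter held 1 GAS match, TTCCCCGAA, from 90 to 82 bases before the start. The Socs1 promoter held no GAS match and 2 overlapping ISRE matches, GAAAGAGAAA and GAAACCGAAA, between 83 and 68 bases before the start. The Ifng promoter held 1 GAS match, TTCAGAGAA, at the far end of the window, and the promoters of Ifngr1, Ifngr2, Jak1 and Jak2 held neither motif. For the members only the farthest upstream start was searched. Among all 32851 promoters of this length, 7.02% held the GAS letters and 2.98% the ISRE letters. Of the 29 other interferon gamma response genes listed here, 18 had a promoter in the table, and 13 of these held at least 1 of the motifs (9 GAS, 10 ISRE) at any of their starts. These matches describe letters in the sequence and were not tested for binding.

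The libraries held between 4017875 and 5382915 counts on genes, and 3 counts corresponded to between 0.524 and 0.902 normalized CPM (counts scaled by library size and TMM factor). Satb1 counts were 7 and 5 under the WT label and 131 and 55 under the KO label, which is the direction opposite to a deletion (log2 fold change 3.36, SE 0.79, edgeR adjusted p = 0.115). Over 12 alternatives its log2 fold change ran from 2.51 to 3.86, and it passed as higher in some of them. Per 1000 counts on the T cell identity list described next, Satb1 was 22.1 and 9.19 against 11.3 and 7.43, which overlap. Whether the titles are in the right order, and whether the counted reads fall in the deleted part of the gene, was not tested. Directions below are therefore those of the libraries as labeled. Xist, the RNA of the inactive X chromosome, was counted 435 and 216 times under the WT label and 0 and 3 times under the KO label, and the Y-linked Ddx3y had 0 and 0 against 188 and 81, so that sex and label cannot be told apart. The 12 genes of the T cell identity list (Cd3d, Cd3e, Cd3g, Cd247, Trac, Trbc1, Trbc2, Cd8a, Cd8b1, Cd2, Lck and Cd5) held 0.00789% and 0.0128% of gene counts in WT 1 and WT 2, and 0.260% and 0.137% in KO 1 and KO 2, against 2.44% to 4.09% on 13 macrophage or monocyte genes, which goes against the labeled sort in all 4 libraries. The macrophage or monocyte share overlapped between the groups, but 7 of its 13 genes were lower without overlap and 1 was higher (22.6% and 25.3% of all genes tested), with a median log2 fold change of -0.73 (C1qa -1.75, Cd68 -1.34, Lyz2 0.01). None of the 13 passed in edgeR, 4 were lower at an unadjusted p under 0.05 (4.23% of all genes), and 1 passed in DESeq2 (3.51%). The small shares on the B cell and neutrophil lists were lower in both KO-labeled libraries. The share on the dendritic cell list (0.0107% and 0.0173% against 0.0577% and 0.0438%) was higher, mostly in counts of Ccr7, which rose (log2 fold change 5.15, edgeR adjusted p = 0.0172), and overlapped without it (0.0102% and 0.0164% against 0.0273% and 0.0146%), while Fscn1, Zbtb46 and Cd209a were also higher without overlap (log2 fold changes 3.33, 3.23 and 2.63, none past the threshold in edgeR), Batf3 was lower (-1.48, edgeR adjusted p = 0.258), and Flt3, Itgax, Xcr1 and Clec9a overlapped. The melanoma list (0.0217% and 0.0254% against 0.2317% and 0.1253%) and the fibroblast or endothelium list (0.00207% and 0.00192% against 0.147% and 0.0203%) were higher in the libraries labeled KO. The last share was carried by the fibroblast genes Col1a1, Col1a2, Col3a1 and Dcn, whereas of the endothelial genes Pecam1 overlapped (log2 fold change 0.18) and Cdh5 had 1 and 6 against 1 and 1 counts. The part of these differences in the results below was not tested.

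Ifng was the member that differed most between the labels. Its transcript, from a gene at chromosome 10, 118441046 to 118445892, plus strand (ENSMUSG00000055170.4), was scarce under the WT label, with 8 and 15 counts, and abundant under the KO label, with 386 and 106. In normalized CPM this was 2.40 and 3.72 for WT 1 and WT 2, and 73.4 and 18.5 for KO 1 and KO 2. The groups did not overlap, and the counting intervals (95%, exact Poisson, covering counting error only) reached up to 6.13 in WT 2 and down to 15.2 in KO 2. The means were 3.06 ± 0.927 (SD, n = 2) and 46.0 ± 38.8 (SD, n = 2), a fitted log2 fold change of 3.89 ± 0.76 (SE), or 14.8-fold. Despite its size the difference missed the threshold of 0.05 over all genes (edgeR quasi-likelihood test, adjusted p = 0.0617, unadjusted p = 0.000579). DESeq2 gave a log2 fold change of 3.9 with an adjusted p of 6.44e-05, and the adjusted p over the alternatives ran from 1.7e-06 to 0.111. Without KO 1, the library with the most Ifng, the log2 fold change was 2.57 (edgeR adjusted p = 0.111), and without any other single library it passed (adjusted p from 0.000748 to 0.0483). In these fits the lone library of a group is assumed to vary like the other pair, and the share of all genes that passed as higher was 0.809% without WT 1, 1.54% without WT 2, 0.803% without KO 1 and 5.64% without KO 2. The annotation places Gm49751 on 25.9% of the exonic bases of Ifng on the same strand, and this gene had 0 counts in every library. Reads in the shared bases may have been set aside as ambiguous, and the number lost from Ifng is not known.

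**Figure D1:**
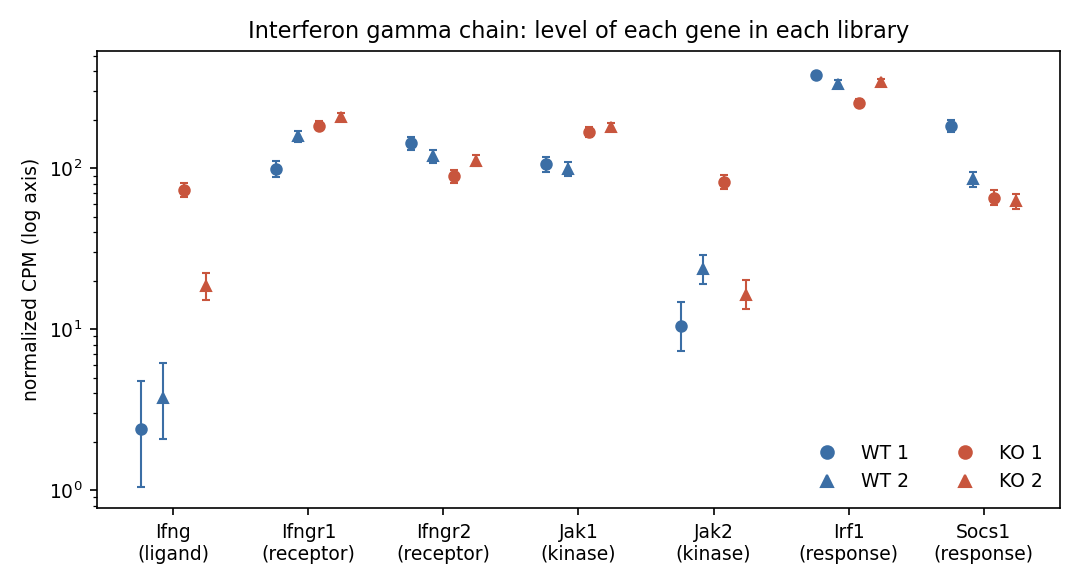
Normalized CPM (log axis) of the 7 genes in each library, with blue for WT, red for KO, circles for library 1 and triangles for library 2; bars are exact Poisson 95% intervals. Ifng spans from 2.40 to 73.4 with both KO libraries above both WT libraries, Jak2 is high in KO 1 (82.0), and Irf1 lies between 254 and 377 in all 4 libraries.

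In the quasi-likelihood test of edgeR none of the 7 genes passed, where 0.574% of the 11837 genes tested did. Ifng passed in DESeq2 (3.51% of genes), in the likelihood ratio test of edgeR (4.7%) and without a filter on low counts (2.74%), and no other member passed in any of these. At an unadjusted p under 0.05 there was 1 member, Ifng, where 13.7% of all genes reached it. The groups did not overlap for 5 of the 7 members, higher in the libraries labeled KO for Ifng, Ifngr1 and Jak1 and lower for Ifngr2 and Socs1, which is to be read against 47.9% of all genes tested.

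The ligand was next set against genes of T cells, which are among its known sources. Which cells held the Ifng counts was not tested. Per 1000 counts on the T cell identity list there were 25.2 counts of Ifng for WT 1 (exact 95% interval from 10.8 to 50.3) and 27.6 for WT 2 (15.3 to 45.9), against 33.2 for KO 1 (29.9 to 36.7) and 14.3 for KO 2 (11.7 to 17.4). On this scale the groups overlapped, KO 1 being the highest and KO 2 the lowest of the 4 libraries, and the log2 ratio of KO to WT was -0.27. With Cd3e, Cd3d and Cd3g as the denominator the values were 69.0, 83.3, 120 and 54.4 per 1000 counts, and with Cd8a alone 333, 536, 458 and 145, again with overlap. These ratios are given as values and were not tested, and the smallest p of an exact permutation of 2 against 2 libraries is 0.333. The counting intervals of WT 1 and WT 2 are wide. In bulk RNA, fewer cells of a type and less RNA per cell cannot be told apart. All 12 T cell identity genes were higher in both libraries labeled KO, where 25.3% of all genes were higher without overlap, and 9 of them passed the threshold, where 0.549% of all genes passed as higher. The 8 genes of the NK cell list, several of which activated T cells also express, held 0.00660% and 0.0101% of gene counts in WT 1 and WT 2 against 0.0921% and 0.0413% in KO 1 and KO 2. Of these, Klrd1 (8 and 24 against 515 and 157 counts), Klrk1 (47 and 114 against 805 and 347), Nkg7 (192 and 260 against 2732 and 1654) and Eomes (3 and 6 against 44 and 37) were higher in both KO-labeled libraries, none past the threshold in edgeR (3 in DESeq2), and Gzma overlapped. The other 3, which T cells mostly lack, were at or near 0, with 0, 1, 4 and 0 counts of Ncr1 in the same order of libraries, 0, 3, 1 and 0 of Klrb1c, and 0 of Klra8 in every library. The part of NK cells in the Ifng level was not tested.

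The genes whose profile over the 4 libraries lay nearest to that of Ifng were Serpinb6b, Cd3g, Ccdc34, Ms4a4b and Rps3a2, out of 10434 genes compared by Euclidean distance of centred log2 CPM. Their distances were 0.275, 0.375, 0.411, 0.436 and 0.445 log2 units. Serpinb6b, nearest of all, had 7 and 12 counts under the WT label against 296 in KO 1 and 105 in KO 2. Cd3g, a chain of the CD3 complex, had 50 and 82 against 1632 and 648 counts, so that KO 1 again stood above KO 2. Rps3a2 is annotated as a processed pseudogene, and its counts are uncertain because of near-identical copies. Among the other members the nearest was Jak2, at rank 768 with a distance of 2.29, followed by Jak1 at rank 2347 and Ifngr1 at rank 2679, while Irf1 and Ifngr2 came at ranks 6657 and 7058 and Socs1 at rank 9190. With 4 libraries such a ranking is a description of these profiles only.

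The receptor genes were present in every library at levels that moved little beside the ligand. Ifngr1 (chromosome 10, 19591949 to 19610229, plus strand), the chain that binds the ligand, stood at 98.9 (WT 1), 158 (WT 2), 183 (KO 1) and 208 (KO 2) normalized CPM. Both KO libraries lay above both WT libraries, but WT 2 was closer to KO 1 than to WT 1, the means were 128 ± 41.6 and 196 ± 17.5 (SD, n = 2 each), and the log2 fold change of 0.61 ± 0.44 (SE) did not pass (edgeR adjusted p = 0.567). Ifngr2 (chromosome 16, 91547072 to 91565623, plus strand), the signaling chain, had 143, 118, 88.9 and 112 normalized CPM. Its order was the reverse, with both WT libraries above both KO libraries, at a log2 fold change of -0.38 ± 0.42 (SE) (edgeR adjusted p = 0.723), which was -0.04 when libraries were scaled by their totals alone. Per length of exon, the ratio of Ifngr1 to Ifngr2 was 0.917 and 1.76 under the WT label and 2.73 and 2.47 under the KO label. The balance of the chains thus lay further toward Ifngr1 in both libraries labeled KO, 2.60 ± 0.184 against 1.34 ± 0.599 (SD, n = 2 each), with both KO libraries above WT 2, and the difference was not tested.

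The kinase genes differed from each other in how steady they were. Jak1 (chromosome 4, 101152367 to 101265282, minus strand), which serves many cytokine receptors besides this one, had 106 and 98.8 normalized CPM under the WT label and 168 and 180 under the KO label. Its replicates were close, and the means of 102 ± 4.73 and 174 ± 8.55 (SD, n = 2 each) gave a log2 fold change of 0.77 ± 0.41 (SE) that did not pass (edgeR adjusted p = 0.446). Jak2 (chromosome 19, 29251828 to 29313080, plus strand) stood at 10.5 (WT 1), 23.5 (WT 2), 82.0 (KO 1) and 16.4 (KO 2) normalized CPM. Only KO 1 stood apart, KO 2 lay between the WT libraries, and the means were 17.0 ± 9.20 and 49.2 ± 46.4 (SD, n = 2 each). The log2 fold change of 1.52 ± 0.74 (SE; edgeR adjusted p = 0.401) became -0.07 without KO 1 and 2.22 without KO 2 (edgeR adjusted p = 0.0194, range over the alternatives from 0.0194 to 1). The last fit sets the single library KO 1 against the WT pair, which alone gives the spread, and 5.64% of its 12852 genes passed as higher. KO 1 also held the largest shares on the T cell identity list, the melanoma list and the fibroblast or endothelium list, and the part of these in its Jak2 level was not tested.

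With TMM scaling, neither response gene had the higher mean under the KO label. Irf1 (chromosome 11, 53770014 to 53778374, plus strand), the transcription factor that relays the response, stood at 377 (WT 1), 335 (WT 2), 254 (KO 1) and 344 (KO 2) normalized CPM. KO 1, with the most Ifng, had the least Irf1, and KO 2 lay between the WT libraries. The log2 fold change was -0.25 ± 0.45 (SE; edgeR adjusted p = 0.839), and it turned to 0.08 when libraries were scaled by their totals alone. Gm17334 shares 3.4% of the exonic bases of Irf1 on the other strand and had 168, 147, 166 and 429 counts. Reads in the shared bases may have been set aside as ambiguous, a row with 0.83% to 1.09% of the reads. No source says that strand was used in counting, so the number lost from Irf1 is not known. Socs1 (chromosome 16, 10782240 to 10785536, minus strand), the feedback inhibitor, had 183 and 85.2 normalized CPM under the WT label and 65.6 and 62.1 under the KO label. It was lower in both KO-labeled libraries (means 134 ± 69.0 and 63.9 ± 2.49, SD, n = 2 each), at a log2 fold change of -1.07 ± 0.48 (SE) that did not pass (edgeR adjusted p = 0.371). The size depended on WT 1, without which the log2 fold change was -0.47.

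**Figure D2:**
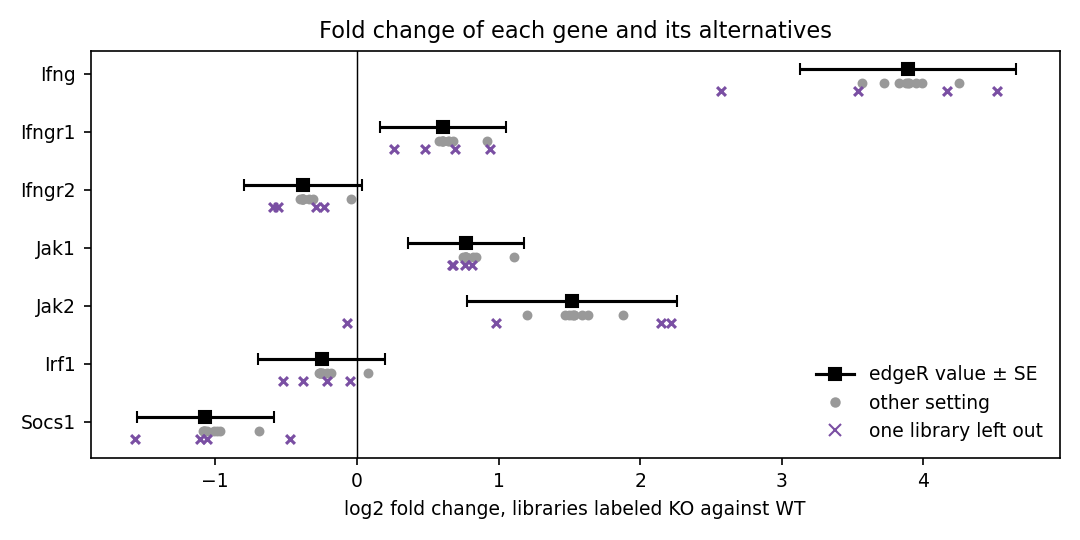
Log2 fold change of the libraries labeled KO against WT for each gene (horizontal axis). Black squares are the edgeR values with bars of 1 SE, gray dots the other settings, and purple crosses the fits with 1 library left out. Ifng stays between 2.57 and 4.52, Jak2 drops to -0.07 without KO 1, and Socs1 stays below 0.

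Set within each library, the ligand was far higher relative to its receptor and response genes where the label was KO. For each 100 counts on Ifngr1 and Ifngr2 there were 0.995 and 1.34 counts of Ifng in WT 1 and WT 2, and 27.0 and 5.79 in KO 1 and KO 2. For each 100 counts on Irf1 and Socs1 the values were 0.429 and 0.884 against 23.0 and 4.55. These ratios use no scaling factor, and in both the lowest KO library exceeded the highest WT library. The intervals did not touch (for the receptors, 0.750 to 2.23 in WT 2 and 4.71 to 7.04 in KO 2). They cover counting error only and not the spread between libraries. The response genes taken relative to the receptor genes went the other way, with 232 and 152 counts of Irf1 and Socs1 per 100 counts on Ifngr1 and Ifngr2 in WT 1 and WT 2 and 118 and 127 in KO 1 and KO 2. These ratios were not tested.

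**Figure D3:**
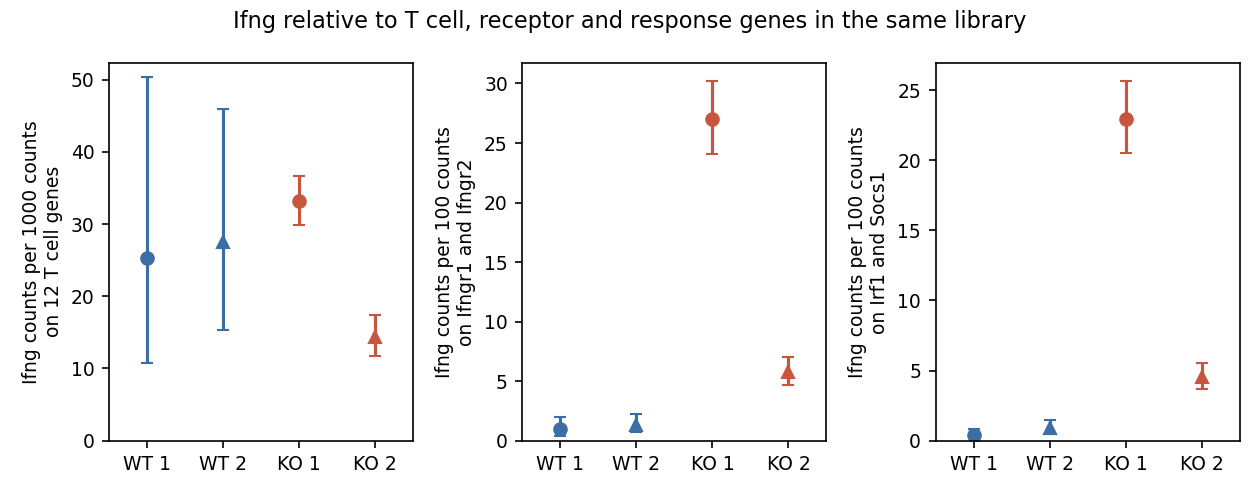
Counts of Ifng relative to counts on 12 T cell genes, on the receptor genes and on the response genes in the same library (vertical axes start at 0); bars are exact 95% intervals for counting error. Relative to T cell genes the libraries overlap (14.3 to 33.2 per 1000), while relative to Ifngr1 and Ifngr2 the libraries labeled KO (27.0 and 5.79 per 100) lie above those labeled WT (0.995 and 1.34).

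Compared per kilobase of exon, the order of the 7 genes also differed. Under the WT label, Irf1 was the highest at 89.6 ± 7.49 normalized CPM per kilobase (SD, n = 2). Socs1 at 46.1 ± 23.7, Ifngr1 at 45.1 ± 14.6 and Ifngr2 at 34.7 ± 4.58 came next and did not differ from one another beyond their spread. Jak1 followed at 14.1 ± 0.654, and Jak2 at 3.39 ± 1.83 and Ifng at 2.36 ± 0.716 came last, within their spread of each other. In the libraries labeled KO, Irf1 at 75.3 ± 16.1 and Ifngr1 at 68.7 ± 6.16 led, within their spread. Next came Ifng at 35.5 ± 30.0, a spread that covers Ifngr2 at 26.6 ± 4.25, Jak1 at 24.1 ± 1.18, Socs1 at 21.97 ± 0.855 and Jak2 at 9.78 ± 9.22. Among 11651 genes ranked by level per length, Ifng stood at percentiles 30.0 and 37.2 for WT 1 and WT 2 and 91.0 and 71.8 for KO 1 and KO 2, whereas Irf1 stayed between 92.0 and 94.3.

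Other genes of the pathway were read from 7 lists of 89 genes in all, 84 of which were tested. In the edgeR test 3 of them passed, all higher in the libraries labeled KO (Tbx21, Xcl1 and Ltb), and the median log2 fold change was -0.01 against 0.05 over all genes tested, where 0.549% of genes passed as higher and 0.0253% as lower.

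Upstream of the ligand, 1 of 13 tested inducers of Ifng passed and rose, with a median of 2.59 for the list, which was -0.36 with the minimum count of the filter raised to 50. This was Tbx21 (chromosome 11, 97098071 to 97115331), the gene of T-bet, the transcription factor that drives Ifng in T and NK cells. It had 3.31 and 1.49 normalized CPM under the WT label and 46.1 and 40.7 under the KO label (log2 fold change 4.18 ± 0.61, SE, edgeR adjusted p = 0.0292). Relative to the T cell identity list, Tbx21 overlapped between the groups, with 34.7, 11.0, 20.8 and 31.5 counts per 1000 in WT 1, WT 2, KO 1 and KO 2. At an unadjusted p under 0.05, 7 inducers were higher and 2 lower, against 9.44% and 4.23% of all genes. The number of higher ones cannot be weighed against that share, because most of them reached the test only through the libraries labeled KO. The list median of 2.59 depends on the same genes, so it cannot be weighed against the median of all genes either. Besides Tbx21 the higher ones were Eomes, Stat4, Il12rb2, Il12b, Il18r1 and Il18rap, chosen here after their values were seen, whereas Il12rb1, which pairs with Il12rb2 in the receptor of IL-12, had 37.6 and 40.1 against 8.94 and 46.6 normalized CPM, and Il18 and Il15 had log2 fold changes of -0.37 and -0.20. Stat4 had 1 and 9 counts against 111 and 54, Il18rap 6 and 7 against 164 and 92, and Il18r1 0 and 0 against 44 and 21, at least 7.32-fold higher against a floor of 3 counts per library (edgeR adjusted p = 0.152, 0.0522 and 0.0981). Lower were Ebi3 and Il27 (the latter also chosen after its values were seen), which encode the subunits of the cytokine IL-27 made by myeloid cells. Ebi3 had 58.3 and 59.7 against 15.6 and 32.5 normalized CPM and Il27 26.1 and 26.2 against 7.42 and 8.55 (edgeR adjusted p = 0.299 and 0.207). The most abundant others were Runx3 and Il12rb1, with log2 fold changes of -0.82 and -0.48 (edgeR adjusted p = 0.436 and 0.790).

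Beside Ifng, 2 of 11 tested lymphocyte cytokines and effectors passed in edgeR and rose (5 passed in DESeq2, against 3.51% of all genes). The median of the list was 1.36 (0.74 without KO 2). Of its genes, Xcl1, Csf2 and Fasl passed the filter only through the libraries labeled KO. Xcl1, a chemokine of activated T and NK cells that draws dendritic cells, had 0.601 and 0.495 normalized CPM against 266 and 42.8 (log2 fold change 8.08 ± 1.08, SE, edgeR adjusted p = 0.0242), a fold that rests on 4 counts under the WT label and was 6.22 on the log2 scale without KO 1. It shares 18.7% of its exonic bases with Gm20743 on the other strand. Xcl1 was the higher in both libraries labeled KO also per 1000 T cell counts, at 6.31, 3.68, 120 and 33.1. Ltb, a lymphotoxin chain, had 6.01 and 11.2 against 127 and 65.4 normalized CPM (log2 fold change 3.48 ± 0.57, SE, edgeR adjusted p = 0.0366), which did not pass without WT 1 (log2 fold change 3.04, adjusted p = 0.147, range over the alternatives from 9.79e-07 to 0.147). Per 1000 T cell counts Ltb was 63.1, 82.7, 57.4 and 50.7. The most abundant of the list, Ccl4, Ccl3 and Tnf, which macrophages also make, had log2 fold changes of -0.44, 0.37 and -0.53 and did not pass (edgeR adjusted p = 0.761, 0.762 and 0.634). Ccl4 had a log2 fold change of 0.09 without KO 1.

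Downstream, none of the 28 tested interferon gamma response genes passed in the edgeR test, and none in DESeq2. Of the 28, 14 had positive and 14 negative log2 fold changes, the median was -0.01, and the groups did not overlap for 6 as higher and 8 as lower, against 25.3% and 22.6% of all genes. At an unadjusted p under 0.05 there were 2, Gbp7 as higher (log2 fold change 1.97, chosen after its values were seen) and Fcgr1 as lower. The most abundant were Psmb8, a subunit of the immunoproteasome, at 2217 and 1981 against 1141 and 1007 normalized CPM, Fcgr1, an Fc receptor of macrophages, at 1088 and 661 against 310 and 405, and Tap1, the peptide transporter of antigen presentation, at 650 and 567 against 272 and 485. Their log2 fold changes of -0.97, -1.29 and -0.69 did not pass (edgeR adjusted p = 0.430, 0.303 and 0.560). Irgm1, a GTPase of the interferon gamma response chosen here after its values were seen, was nearly level at 216 and 216 against 233 and 217 normalized CPM. Guanylate-binding protein genes share sequence with one another, and their separate values are uncertain.

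Of the 7 interferon regulatory factors besides Irf1 none passed in edgeR or DESeq2, 6 had negative log2 fold changes, and the median was -0.61 (-0.31 without KO 1 and -1.30 without KO 2). Irf7 had 1257 (WT 1), 507 (WT 2), 169 (KO 1) and 715 (KO 2) normalized CPM, Irf5 had 616, 462, 177 and 387, and Irf8 had 578, 421, 209 and 473. In each of these KO 1 was the lowest library. Irf4, a factor induced in activated lymphocytes and chosen here after its values were seen, had a positive log2 fold change, with 6.31 and 4.71 against 28.0 and 11.0 (edgeR unadjusted p = 0.0212, adjusted p = 0.276).

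None of the 9 other Janus kinase and STAT genes passed in the edgeR test (1 in DESeq2), with 1 at an unadjusted p under 0.05, Stat4. Stat3 and Stat6, which serve other cytokines, had log2 fold changes of 0.54 and 0.11 (edgeR adjusted p = 0.615 and 0.948). None of the 11 negative regulators passed in edgeR (1 in DESeq2), 1 was higher and 1 lower at an unadjusted p under 0.05 (Cish and Pias4, chosen after their values were seen), and the median was -0.39, which turned to 0.02 without KO 1. The most abundant were Ptpn6, Socs3 and Ptpn1, with log2 fold changes of -0.60, 0.09 and -0.58 (edgeR adjusted p = 0.638, 0.965 and 0.583). Of the 6 tested genes of other cytokine receptors (Ifnar1, Ifnar2, Il10ra, Il10rb and, of another receptor class, Il6st and Il6ra), none passed in edgeR or DESeq2 and none reached an unadjusted p of 0.05, and Il10rb, Il10ra and Ifnar1 had log2 fold changes of -0.78, -0.26 and -0.04 (edgeR adjusted p = 0.476, 0.835 and 0.982), the last of which turned positive in 2 of 3 other scalings.

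**Figure D4:**
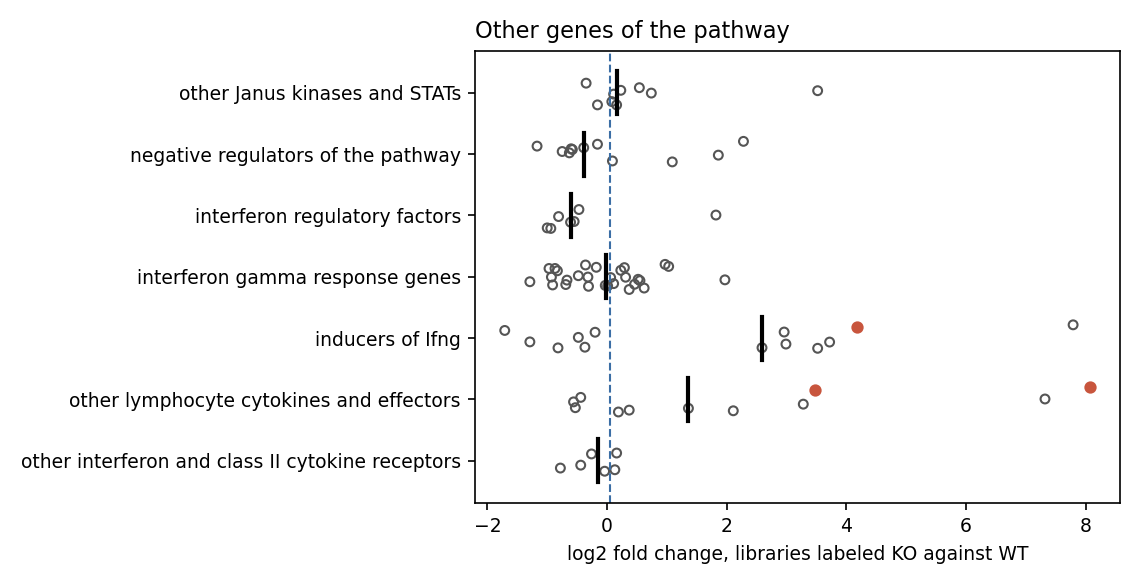
Log2 fold change of the libraries labeled KO against WT (horizontal axis) for the tested genes of each list, 1 circle per gene, with filled red for genes past the threshold. Black bars are list medians and the dashed line is the median of all genes tested (0.05). Response genes spread evenly around a median of -0.01, and the 3 genes past the threshold (Tbx21, Xcl1 and Ltb) lie in the inducer and cytokine lists. The values of 7.79 (Il18r1) and 7.32 (Csf2) rest on 0 counts in both libraries labeled WT and depend on the prior count.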

How the data were processed

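RNA was measured in 4 libraries, 2 titled WT and 2 titled KO. The authors deposited raw read counts per gene, 1 table per library, made per the methods and processing notes with HISAT2 2.1.0 on mm10 and HTSeq 0.11.0; the annotation and the strand setting are not given in the sources used here. Rows that name no gene (unaligned, ambiguous and similar reads) were left out, so that genes held 20.5% to 28.8% of the reads of each table.

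The counts went into edgeR 4.0.16 (R 4.3.3), where filterByExpr (minimum count 10, minimum total 15) removed low genes and TMM gave the scaling. A single fit over all 4 libraries with the label as its only term was tested by quasi-likelihood, two-sided, with Benjamini-Hochberg adjustment over all 11837 genes and a threshold of 0.05. The prior count was the default of edgeR, and the SE is the log2 fold change divided by the square root of F. The script was tested on simulated data. Alternatives were DESeq2 1.42.0, the likelihood ratio test, other scaling factors, filters and prior count, the replicate number as a block, and leaving out each library. Positions and union exon lengths came from GENCODE M21, in which 96.3% of symbols matched, and promoters from RefSeq on GRCm38.p6. Plots were drawn with matplotlib 3.10.9.

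Named were the members, Satb1, the genes nearest to Ifng (mean of at least 20 counts, prior count 2), and from each list up to 4 genes past the threshold and the 3 most abundant others; any other gene was chosen after its values were seen, and 1 gene that the rule names is not reported here. Members and lists were chosen with earlier results of these data known. Counting intervals are exact at the 95% level and cover counting error only, since no source names molecular identifiers that would mark PCR copies.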

Additional observations from a re-analysis of the deposited data

How the results depend on the processing

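Of 590 values of 46 results under alternatives, 489 were kept, and 18 log2 fold changes of single genes changed sign. For single genes, kept means the same direction and side of the threshold. For list medians and the ratio to T cell genes, it means a move of less than the spread between libraries. For counts of genes, it means a count within a fixed ratio of the main one, in which no spread enters. The sign held in every alternative for 5 of the 7 members, Jak2 and Irf1 being the exceptions. With 2 libraries a group, each call rests on few values, and genes near 3 counts could not be resolved at this depth. Scaling by library totals alone moved the median log2 fold change of all genes from 0.05 to 0.39.

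Where 68 genes passed (65 higher, 3 lower), there were 134 with library totals alone (131 higher, 3 lower), 583 with no filter on low counts (505 and 78), 416 in DESeq2 (350 and 66), 556 in the likelihood ratio test (476 and 80), and 113 to 1248 with a library left out (113 without WT 1, 228 without WT 2, 123 without KO 1, 1248 without KO 2). Of the pathway genes, 3 passed, against 5 with library totals alone, 12 with no filter, 5 with a filter at 50 counts, 10 in DESeq2, 10 in the likelihood ratio test, and 2 to 20 with a library left out (7 without WT 2, 20 without KO 2). Replicate numbers 1 and 2 are shared by the groups, but the labels tie them to nothing else, and the deviations of WT 1 and KO 1 from their group means correlated at -0.179 over 11837 genes. With the replicate block 215 genes passed, 5 of them in the pathway lists, and with the numbers crossed, chosen after seeing the data, 647 did.

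The log2 fold change of Ifng passed at 4.25 with library totals alone, 3.83 with no filter, 3.9 in DESeq2, 3.89 in the likelihood ratio test and 3.57 with the replicate block, and ran from 2.57 (without KO 1) to 4.52 with a library left out. Jak2 ran from -0.07 (without KO 1) to 2.22, and Irf1 was 0.08 with library totals alone. Relative to T cell genes, the log2 ratio of Ifng ran from -0.88 without KO 1 to 0.33 without KO 2. Signs also turned for genes that did not pass. With library totals alone Il10ra was 0.06 and Ifnar1 0.30, and Ifnar1 was 0.01 with upper quartile factors and 0.03 with the filter at 50 counts. With the replicate block Stat6 was -0.03 and Socs3 -0.11. With a library left out the ranges were -0.80 to 0.65 for Stat6, -0.95 to 0.67 for Socs3, -2.15 to 0.26 for Il12rb1, -1.35 to 0.09 for Ccl4, -0.14 to 0.71 for Ccl3, -0.80 to 0.10 for Il10ra and -0.28 to 0.14 for Ifnar1. Without KO 2, Ebi3, Il12rb1, Ccl4, Fcgr1, Irf7 and Irf5 were past the threshold as lower, in a fit of the single library KO 1 against the WT pair, which alone gives the spread and in which 4.07% of 12852 genes passed as lower. The list medians ran from -0.29 to 0.63 with a library left out for the other Janus kinases and STATs (0.16 with all libraries), -0.70 to 0.02 for the negative regulators and -0.54 to 0.12 for the other receptors (-0.15 with all), and with library totals alone were 0.32 for the response genes and 0.18 for the other receptors. The cause was not tested.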

Other observations

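Some response genes had near-equal group means over libraries that differed widely. These were chosen after their values were seen. Nos2, the inducible nitric oxide synthase of activated macrophages, had 151 and 81.7 normalized CPM in WT 1 and WT 2, and 7.61 in KO 1 against 243 in KO 2. Cxcl9, a chemokine induced by interferon gamma, ran the opposite way between the KO-labeled libraries, at 263 in KO 1 and 30.9 in KO 2, with 72.4 in WT 1 and 218 in WT 2. Their log2 fold changes were 0.11 ± 1.07 and 0.01 ± 0.85 (SE), so neither differed between the labels beyond the spread of the libraries (edgeR adjusted p = 0.981 and 0.997).

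Lta, which encodes lymphotoxin alpha, had 0 and 4 counts in WT 1 and WT 2, 104 in KO 1 and 10 in KO 2, and was too low to be tested. Gzmb, which encodes the cytotoxic protease granzyme B, had 50.2 and 44.3 normalized CPM under the WT label and 175 and 234 under the KO label, a log2 fold change of 2.11 ± 0.44 (SE) that did not pass (edgeR adjusted p = 0.0759). Per 1000 counts on the T cell identity list its order was the reverse, with 527 and 329 against 79.2 and 181.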
